A study of Mus musculus with 9 samples.

Results

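Iron overload on top of a high fat diet was compared with the high fat diet alone in the aorta of Apoe-/- mice, which lack apolipoprotein E, a ligand for the clearance of lipoprotein remnants, and develop atherosclerosis. The genes described are 13883 of the 54532 in the deposited table. They are those that reached an FPKM of 1 or more in 3 or more of the 9 libraries. FPKM stands for fragments per kilobase of gene, here scaled by a size factor per library. The libraries compared are 6 of those 9. The HFD group (libraries HFD_1 to HFD_3) is 3 Apoe-/- aortas after 24 weeks of a high fat diet, and the HFD_IO group (HFD_IO_1 to HFD_IO_3) is 3 Apoe-/- aortas after the same diet with intraperitoneal ammonium iron(III) citrate. Mice entered the 24-week regimens at an age of 6 to 8 weeks. The level without high fat diet or iron is given by 3 Apoe-/- aortas on chow (CD_1 to CD_3). Strain background, sex, iron dose, time of day at harvest and any vehicle injection in the HFD group do not appear in the sources used here. Nothing states more than that the 9 aortas are separate samples, so p-values measure the spread between these samples.

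Iron that enters a cell through transferrin receptor or natural resistance proteins is stored in ferritin, used for heme and iron-sulfur clusters in mitochondria, or exported by ferroportin, the product of Slc40a1. In arteries the cells best known for handling large amounts of iron are macrophages, which take up dying red cells, break down heme with heme oxygenase and either store or release the metal. The same cells fill with cholesterol in atherosclerotic lesions and are then called foam cells. The other main cells of the aortic wall are contractile smooth muscle, endothelium and adventitial fibroblasts, with fat and blood attached.

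Recovered reads ranged from 16660963 to 18308450 per library, and libraries of the same group were correlated at 0.96 to 0.99 over genes. Levels of smooth muscle, macrophage and endothelial markers were those of an aorta: Acta2 (smooth muscle actin) ranged from 1863 to 6237 FPKM and Pecam1 (an endothelial adhesion molecule) from 63.7 to 296. Of 8 hepatocyte markers 7 stayed under the filter, Alb (albumin) at 1.81 FPKM or less. The 1 above the filter, Cyp2e1, ranged from 14.8 FPKM in HFD_IO_1 to 274 in HFD_3, and its source was not tested. HFD_3 stood apart within its group by more fat and red cell RNA (values below). CD_1 correlated at 0.96 with CD_2 and CD_3, which correlated at 0.99 with each other. In bulk tissue fewer cells of a type and less RNA per cell cannot be told apart. Differences are given as HFD_IO minus HFD on the scale log2(FPKM + 1), which understates the change of low genes, with the SE and the Benjamini-Hochberg adjusted p of limma over all 13883 genes. Genes called higher or lower passed an adjusted p of 0.05.

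Of the 13883 genes, 1956 (14.1%) were higher and 2013 (14.5%) lower in HFD_IO, together 28.6%, and the 3 HFD and 3 HFD_IO values did not overlap for 48.5%. The median change over all genes was 0.00, with lower and upper quartiles of -0.30 and 0.28. The deposited values are scaled by size factors, each the median ratio of a library to a common reference. A median near 0, and in part the balance of higher and lower genes, therefore follows from the scaling. Among the called genes, changes of at least 2-fold on the log2(FPKM + 1) scale numbered 436 up and 345 down. Changes of at least 4-fold on that scale numbered 20 up and 28 down among them. Any count of changed genes in a list below has to be read against these shares. Without HFD_3 the counts fell to 1182 higher and 1093 lower, without HFD_IO_2 to 1218 and 1293, and without HFD_IO_1 to 1314 and 1237. A total of 1813 genes, 1011 higher and 802 lower, kept their call without any 1 of the 6 libraries and under other scalings. The scalings are TPM (FPKM scaled to the same total in every library) and quantile normalization. The HFD and HFD_IO values of each gene in this set also did not overlap, as the choice required. The 8 fits, with the lack of overlap, are called the 8 basic checks below. Genes named below are from this set unless stated otherwise. Rescaling to TPM, which raised the median of all genes by 0.14, gave 2373 higher and 1160 lower genes, and a filter at 5 FPKM gave 1288 and 1760.

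The largest rise in this set was in Mmp13, which encodes an interstitial collagenase also made by hypertrophic cartilage cells. It stood at 2.03, 1.54 and 1.15 FPKM in HFD_1 to HFD_3 and at 37.1, 23.6 and 19.8 in HFD_IO_1 to HFD_IO_3, against 0.60 to 1.20 on chow (log2 change 3.4, SE 0.23, adjusted p = 0.000181). The lowest HFD_IO library was 9.76 times the highest HFD library. Rnf128, an E3 ubiquitin ligase gene known from T cells, went from 9.75, 8.41 and 4.57 FPKM to 52.1, 36.1 and 25.6 (2.18), and Tmem178, a regulator of calcium in osteoclast precursors, from 1.92, 1.69 and 1.56 to 12.6, 9.23 and 11.3 (2.14). Hpgds, which encodes the hematopoietic prostaglandin D2 synthase, rose by 2.12. The lowest HFD_IO library was 2.62 times the highest HFD library in Rnf128, 4.81 times in Tmem178 and 3.55 times in Hpgds. Adam8, a leukocyte surface protease gene, rose by 2.21, from 8.82 to 17.9 FPKM in HFD to 59.5 to 70.9 in HFD_IO.

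The largest fall outside pseudogenes was in Retnla, a marker of alternatively activated macrophages that is also made in fat. It stood at 259, 97.9 and 238 FPKM in the HFD libraries and at 6.14, 21.8 and 42.1 in the HFD_IO libraries (-3.26, SE 0.63, adjusted p = 0.0071). G0s2, an inhibitor of adipose triglyceride lipase, went from 92.6, 116 and 174 to 13.8, 21.9 and 19.1 (-2.71). Rgs4, a regulator of G protein signalling in arterial smooth muscle, was tight within groups at 53.4, 54.1 and 60.8 against 10.7, 7.76 and 13.1 (-2.34). Gkn3 went from 38.2 to 55.1 FPKM in HFD to 4.69 to 13.7 in HFD_IO (-2.44), Angptl7, an angiopoietin-like secreted factor gene, from 16.5 to 34.9 to 3.46 to 4.01 (-2.43), and Kcnc4, a voltage-gated potassium channel gene, from 11 to 19.6 to 1.24 to 4.32 (-2.07). Chow levels of Gkn3 (30.2 to 37.4) and Rgs4 (38 to 38.4) lay between the 2 diet groups. Fibin, a secreted protein gene, fell by 2.24 on the log2 scale.

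**Figure D1:**
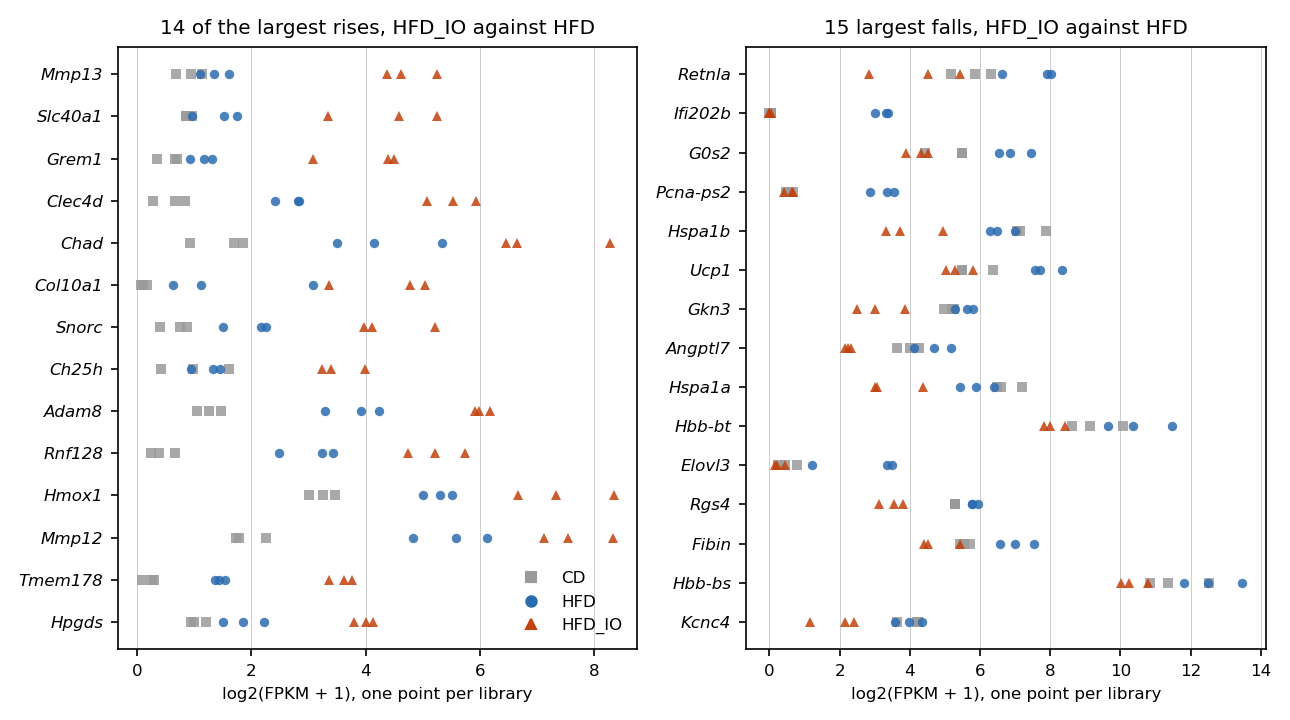
Level of 14 of the genes with the largest rises (left) and the 15 with the largest falls (right) among the calls kept without any 1 library and under other scalings, as log2(FPKM + 1), with 1 point per library (squares CD, circles HFD, triangles HFD_IO). In every gene plotted the HFD_IO points lie to one side of the HFD points, because the choice of genes required it. Ifi202b and Pcna-ps2 are low in both CD and HFD_IO.

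Genes of iron export and storage rose in part, and unevenly across libraries. Slc40a1, the only known cellular iron exporter gene, stood at 2.35, 1.88 and 0.94 FPKM in HFD_1 to HFD_3 and at 37.1, 23.0 and 9.15 in HFD_IO_1 to HFD_IO_3, with chow at 0.81 to 0.94. The HFD_IO libraries spread 4.06-fold among themselves, and the lowest was still 3.89 times the highest HFD library (log2 change 2.99, SE 0.41, adjusted p = 0.0021). Ferritin light chain, Ftl1, went from 1386, 1346 and 958 FPKM to 3862, 2959 and 2223 (1.28, SE 0.23, adjusted p = 0.0054). The heavy chain, Fth1, did not pass: its HFD values of 6527, 7552 and 7604 overlapped the HFD_IO values of 5161, 6552 and 5551 (-0.33, adjusted p = 0.271). Ftl1 was below Fth1 in all 6 libraries, by a factor of 4.71 to 7.94 in HFD and 1.34 to 2.5 in HFD_IO. Both have processed copies elsewhere in the genome, so the assignment of their reads is uncertain. Of the other 12 tested genes of storage, export and regulation, Cp (ceruloplasmin, a ferroxidase) rose from 13.2, 13.6 and 10.5 to 20.5, 27.6 and 27.5 (0.96) and Ncoa4 (the receptor that takes ferritin to the lysosome) from 6.13, 6.16 and 5.19 to 11.3, 11.2 and 8.66 (0.73). In the list of 14, 5 rose, 1 fell and 8 did not pass, with a median of 0.23. The 1 that fell (Hfe2) lost its call without HFD_2, HFD_3, HFD_IO_1 or HFD_IO_3. Hamp, the gene of the iron hormone hepcidin, was at 0.75 FPKM or less in every library and was not tested.

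Of 11 iron uptake genes 1 rose, 3 without CD_1 and 2 without HFD_IO_1 or HFD_IO_3 or under TPM, and 1 fell. Slc11a1, which pumps iron out of the phagosomes of macrophages, rose from 24.8, 20.3 and 12.4 FPKM to 69.5, 66.9 and 55.2 (1.73, SE 0.22, adjusted p = 0.0017). Transferrin receptor, Tfrc, stood at 7.89, 6.35 and 3.63 FPKM in HFD and 3.61, 2.75 and 2.29 in HFD_IO, so that the nearest HFD and HFD_IO libraries almost touched (-0.80, adjusted p = 0.0408). That call was lost without CD_3, HFD_1, HFD_2, HFD_IO_1, HFD_IO_2 or HFD_IO_3 and under TPM. Slc11a2 (0.28, adjusted p = 0.0909), Slc39a14 (0.31, adjusted p = 0.114) and Steap3 (-0.21, adjusted p = 0.325), which carry or reduce iron at other membranes, did not pass. Hmox1, heme oxygenase 1, rose from 44.8, 38.5 and 31.0 to 324, 159 and 101 FPKM (2.17). Like Slc40a1, Ftl1 and Ncoa4 it was highest in HFD_IO_1 and lowest in HFD_IO_3.

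**Figure D2:**
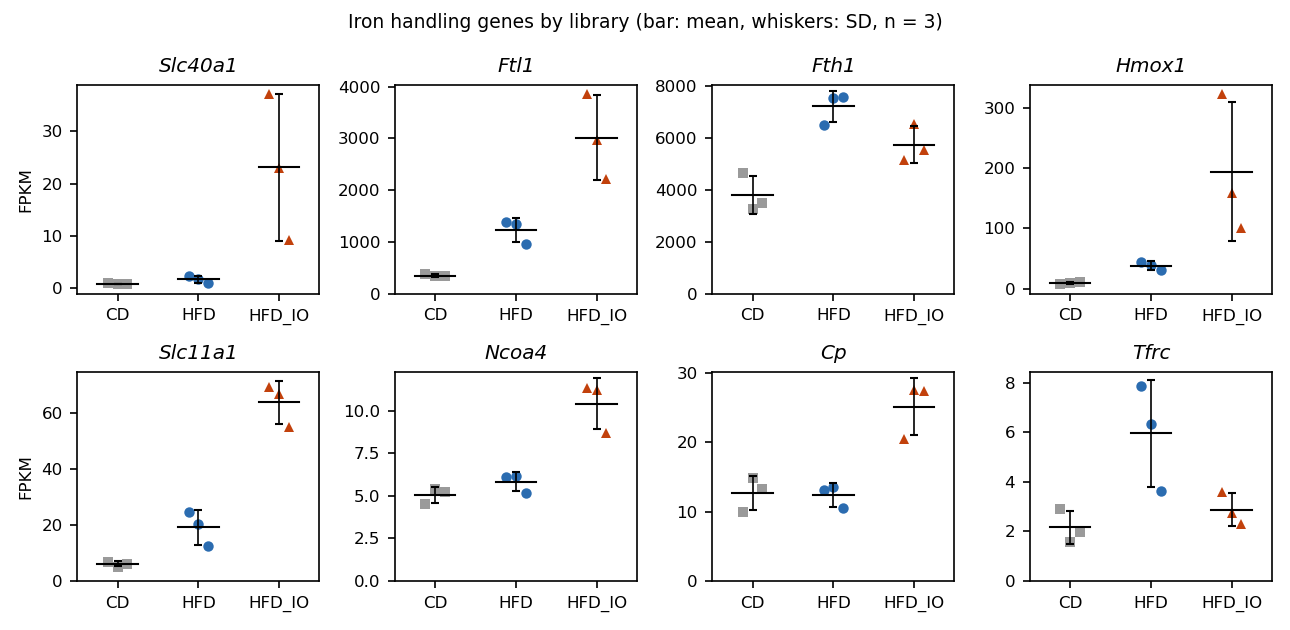
FPKM of 8 iron handling genes in the 9 libraries (symbols: 1 library each, in the order of their numbers; bar: mean; whiskers: SD, n = 3 per group). Slc40a1, Ftl1, Hmox1, Slc11a1, Ncoa4 and Cp are higher in every HFD_IO library than in any HFD library, Fth1 overlaps, and Tfrc is lower with a narrow gap.

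Several genes of mitochondrial iron use went the other way. Of 22 genes of mitochondrial iron import, iron-sulfur clusters and heme synthesis, 8 were lower and 2 higher, with a median of -0.29. The lower count was 4 without HFD_3 or HFD_IO_3 and 5 without HFD_IO_1 or HFD_IO_2, and the following 4 did not depend on 1 library. Glrx5 (-0.80), Iscu (-0.67) and Lyrm4 (-0.64) serve cluster assembly and Urod (-0.62) heme synthesis. Iscu, the scaffold protein gene, was at 67.8, 71.3 and 83.4 FPKM in HFD and 43.9, 45.4 and 49.3 in HFD_IO, near its chow level of 39.6 to 44.9. The 2 that rose are the mitoferrins, which import iron into mitochondria: Slc25a37 from 5.27, 4.42 and 5.87 to 11.8, 8.81 and 7.88 FPKM (0.75) and Slc25a28 by 0.39. The cluster and heme synthesis genes are short, and short genes as a class were lower (below).

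Genes of lipid peroxidation and antioxidant defence were split. Of 22 ferroptosis genes 4 were higher (18.2%) and 5 lower (22.7%), against 14.1% and 14.5% of all genes. Acsl4, which puts polyunsaturated acyl chains into phospholipids, went from 5.77, 5.63 and 5.32 FPKM to 10.9, 11.2 and 8.32 (0.75), and Lpcat3, which acts with it, rose by 0.50. Gpx4, the peroxidase that repairs lipid peroxides, was at 259, 292 and 350 in HFD and 209, 204 and 179 in HFD_IO (-0.59, adjusted p = 0.0285), a call lost when HFD_2, HFD_3, HFD_IO_1, HFD_IO_2 or HFD_IO_3 was left out, under quantile normalization and with the length trend removed. The higher count was 2 without HFD_2 or HFD_3. The lower count was 1 without HFD_2, HFD_IO_1 or HFD_IO_3, 2 without HFD_3 or HFD_IO_2 and 3 without HFD_1 or under TPM. Slc7a11, the cystine importer gene, was under the filter, listed at 0.115, 0.116 and 0.119 FPKM in HFD and at 2.32, 0.400 and 0.330 in HFD_IO.

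Among 29 antioxidant enzymes and NRF2 targets, 5 rose and 8 fell, with a median of -0.26. Txnrd1, cytosolic thioredoxin reductase, rose from 15.9, 15.7 and 13.3 to 42.1, 30.3 and 25.9 FPKM (1.06) and Pgd, an NADPH source of the pentose phosphate pathway, from 18.9 to 20.3 to 31.2 to 42.7 (0.88). Sod3, the superoxide dismutase secreted by smooth muscle, fell from 466, 533 and 585 to 259, 211 and 312 FPKM (-1.03). Gsta4, which conjugates the lipid aldehyde hydroxynonenal, fell from 11.5, 13.5 and 13.3 to 6.62, 3.4 and 3.71 (-1.35) and Prdx4, a peroxiredoxin of the endoplasmic reticulum, by 0.79 on the log2 scale. The number that rose was 3 without HFD_2, and the number that fell was 4 without HFD_3 or HFD_IO_3 or under quantile normalization. Of 6 metallothionein and zinc response genes 3 rose and 0 fell, 1 without HFD_2 or HFD_IO_1. The zinc importer gene Slc39a10 rose by 0.66, and Mt2 was called (1.16, adjusted p = 0.0252) but not without HFD_1, HFD_2 or HFD_IO_1. Mt1, the other main metallothionein gene, did not pass (0.25, adjusted p = 0.711), its HFD_3 value of 651 FPKM lying above all others.

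Macrophage genes rose as a group. Of 19 pan-macrophage markers 16 were higher and 0 lower (median 0.99), and 11 of the 16 kept their call in the 8 basic checks. Their summed level was 5640, 5327 and 3426 FPKM in HFD_1 to HFD_3 and 7929, 9823 and 5821 in HFD_IO_1 to HFD_IO_3, against 758 to 839 on chow. Cd68, a lysosomal membrane protein of macrophages, went from 149, 134 and 99.9 to 420, 382 and 338 FPKM (1.58), and Adgre1, which encodes F4/80, from 17.8, 24.0 and 22 to 53.2, 71.9 and 55.9 (1.46). Cybb, the catalytic subunit of the phagocyte NADPH oxidase, went from 14.2, 14.6 and 8.85 to 42.6, 57.7 and 38.5 (1.81). The smooth muscle oxidase Nox4 moved the other way, from 39.7, 56.7 and 58.0 to 29.2, 25.6 and 31.6 (-0.80). Lyz2, lysozyme, did not pass (0.47, adjusted p = 0.332). The groups of Lyz2 values overlapped, at 1674 to 3281 FPKM in HFD and 2401 to 4511 in HFD_IO.

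Some other macrophage genes fell in the same libraries. Of 17 genes of resident and alternatively activated macrophages 4 were lower (23.5%) and 2 higher (11.8%), with a median of -0.32. The shares over all genes were 14.5% lower and 14.1% higher. Beside Retnla, Timd4 (a phosphatidylserine receptor of long-lived tissue macrophages) went from 2.05, 3.80 and 4.93 FPKM to 0.97, 0.61 and 0.70 (-1.34), Cbr2 (a carbonyl reductase) from 315, 299 and 372 to 134, 112 and 136 (-1.36), and Mgl2 (a galactose-binding lectin) from 18.8, 9.28 and 16.7 to 4.00, 8.00 and 6.03 (-1.17). All 3 HFD_IO libraries were below all 3 HFD libraries in each, as the 8 basic checks required. The 2 higher members, Stab1 and Mrc1, dropped to 1 without CD_2, HFD_3, HFD_IO_1 or HFD_IO_3 and to 0 without HFD_IO_2. Cd209a, a dendritic cell lectin gene, fell by 0.75 on the log2 scale. Cx3cr1, the fractalkine receptor of monocytes and some macrophages, was at 1.6, 1.62 and 0.92 FPKM in HFD, 1.68 to 1.95 on chow and 5.97, 10.6 and 6.75 in HFD_IO (1.86, SE 0.20, adjusted p = 0.00098). Spn (1.27) and Treml4 (0.98), also known from non-classical monocytes, rose with it. They are the 3 higher members of 12 blood monocyte genes, of which 1 fell (the matrix proteoglycan gene Vcan, by 0.85, a call lost with the fat or muscle covariate) and 8 did not pass (median -0.02). Of 12 neutrophil genes 2 rose (Csf3r, the G-CSF receptor, by 1.11 and Mmp8, a neutrophil collagenase, by 1.03), a share near that of all genes and a count of 4 without CD_1 and 6 without HFD_IO_1, and 1 fell (G0s2, also made in fat). The calprotectin genes S100a8 (1.02, adjusted p = 0.182) and S100a9 (1.25, adjusted p = 0.16) did not pass.

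No B cell marker of the 7 tested passed, although the median was -1.22: HFD_2 alone held 140 FPKM over the list, against 16 and 21.6 in the other HFD libraries and 12.3 to 24.5 in HFD_IO. In limma 3 members were lower and 0 higher at an unadjusted p of 0.05, and limma voom on recovered reads called 0, but 4 were lower in limma without HFD_1. Of 14 T and NK cell markers 1 (Il7r, 1.28, adjusted p = 0.025) passed, lost without HFD_3, HFD_IO_1 or HFD_IO_2. Of 18 interferon-inducible genes 1 rose (Ifih1, 0.67), with 3 without CD_1 and 2 without CD_2 or HFD_2. The higher share in both lists is below the 14.1% of all genes.

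Several receptors and mediators of innate immunity rose. In the C-type lectin receptors 5 of 12 rose, led by Clec4d, which senses mycobacterial glycolipid, at 6.11, 6.06 and 4.31 FPKM in HFD and 60.4, 45.0 and 32.8 in HFD_IO (2.83). Of the complement genes, C3ar1, the receptor for C3a, went from 15.2, 16.2 and 10.5 to 62.4, 70.9 and 55.1 FPKM (2.11) and C5ar1, the receptor for C5a, from 4.65, 5.49 and 6.06 to 13.5, 21.0 and 19.4 (1.55). Cd59a, which blocks the membrane attack complex, fell from 49.1, 43.2 and 51.6 to 25.4, 20.8 and 19.6 (-1.10). The complement list had 9 of 19 higher, 5 without HFD_2. Of the 8 Fc receptor genes 6 rose, 3 without HFD_IO_2, while Fcgrt, the neonatal Fc receptor, fell by 0.89 on the log2 scale.

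In the interleukin-1 and inflammasome list 9 of 15 genes rose and 0 fell (median 0.76). Nlrp3, the inflammasome sensor gene, was at 0.82, 0.24 and 0.47 FPKM in HFD and 1.6, 2.79 and 1.48 in HFD_IO (0.96), and Tnf at 0.59, 0.62 and 0.23 against 1.68, 2.66 and 1.73 (1.03). Both are low transcripts. Il1rn, the interleukin-1 receptor antagonist, went from 5.07, 4.03 and 3.18 to 9.78, 13.3 and 8.30 (1.16), and stood above Il1b in each of the 6 libraries. Il1b, at 0.63 to 1.47 against 1.99 to 4.28 FPKM, was called (1.04, adjusted p = 0.0231) but not without HFD_2, HFD_3, HFD_IO_2 or HFD_IO_3. Of 18 CC chemokine genes 6 rose and 0 fell (2 fell without CD_1), among them Ccl3 from 6.49, 6.25 and 6.19 to 29.2, 34.3 and 21.5 (1.98), Ccl4 by 1.79 and the monocyte attractants Ccl2 by 1.67 and Ccl7 by 1.20. Cxcl16, which also acts as a scavenger receptor, rose by 1.25.

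Lipid handling genes of macrophages rose. Of 21 genes that mark Trem2-type foam cells 15 were higher and 0 lower (median 1.04), a count of 9 without HFD_3 or HFD_IO_2 and 8 without HFD_IO_1. Lpl, lipoprotein lipase, went from 51.8, 49.4 and 68.7 FPKM to 195, 228 and 167 (1.78), and Cd36, a receptor for oxidized LDL and fatty acids, from 72.4, 67.5 and 94.5 to 324, 258 and 179 (1.66). Olr1, another receptor for oxidized LDL, was at 0.14 to 0.32 FPKM in HFD and 1.61 to 1.78 in HFD_IO (1.15). Cholesterol export genes followed: 10 of 17 in the LXR and efflux list rose and 9 of the 10 kept their call in the 8 basic checks. Ch25h, which makes the LXR ligand 25-hydroxycholesterol, went from 1.52, 1.73 and 0.91 to 8.37, 15 and 9.57 FPKM (2.30), Abca1, the cholesterol exporter, from 24.7, 20.5 and 12.6 to 58.3, 57.8 and 46.3 (1.49) and Lipa, lysosomal acid lipase, from 79.1, 74.7 and 47.6 to 253, 217 and 154 (1.62). The LXR target Scd1 was lower (-1.14, adjusted p = 0.032) but did not pass when HFD_2, HFD_3, HFD_IO_1 or HFD_IO_3 was left out.

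Genes of cholesterol synthesis moved against those of cholesterol export. Of 20 genes of that pathway 9 were lower and 1 higher, with 5 lower without HFD_IO_1 or under TPM. Cyp51, a sterol demethylase, fell from 5.18, 6.49 and 7.11 FPKM to 2.73, 2.64 and 2.81 (-0.95), and Pmvk, a mevalonate pathway kinase, by 0.88 on the log2 scale. The 1 higher member, Dhcr7, lost its call without HFD_2, HFD_3, HFD_IO_1 or HFD_IO_3.

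Lysosomal genes rose with the macrophage lists: 16 of 33 proton pump subunits, hydrolases and membrane proteins were higher and 0 lower (median 0.36). Gusb, which digests glycosaminoglycans, went from 61.0, 61.3 and 41.0 FPKM to 119, 127 and 96.5 (1.07). Ctsk, the collagen-cleaving cathepsin of osteoclasts, was tight at 92.0, 85.6 and 81.4 against 294, 235 and 230 (1.53). Ctse, an aspartic protease gene, fell by 1.32 on the log2 scale, from a range of 1.53 to 4.43 FPKM in HFD. In the osteoclast list 6 of 15 rose, including Clcn7, a lysosomal chloride transporter, by 0.89, and the transcription factor genes Mitf by 0.76 and Nfatc1 by 0.56. Acp5, the tartrate-resistant phosphatase used to mark osteoclasts, did not pass.

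Matrix proteases moved in both directions. Of 18 metalloproteinase and inhibitor genes 7 rose and 3 fell. With Mmp13 and Mmp12 (macrophage elastase, 2.15), the rises included Mmp14, a membrane-bound activator of other metalloproteinases, from 24.9, 21.1 and 14.8 to 51.9, 66.4 and 56.2 FPKM (1.5), Mmp19 (1.20) and Mmp3, stromelysin, from 71.9, 124 and 106 to 240, 249 and 171 (1.14). Mmp17 fell by 1.20 and Mmp23 by 1.03 on the log2 scale. No Timp gene, which encode the inhibitors, passed. Mmp13 and Mmp3 lie near each other on chromosome 9 and are textbook targets of AP-1, whose site is shown here because both rose. The 120 bases before the RefSeq start nearest the gene's 5′ end (GRCm38.p6, plus strand, chr9:7272394-7272513 for Mmp13 and chr9:7445702-7445821 for Mmp3) hold 1 match each to TGANTCA, searched on both strands, in capitals.
Mmp13: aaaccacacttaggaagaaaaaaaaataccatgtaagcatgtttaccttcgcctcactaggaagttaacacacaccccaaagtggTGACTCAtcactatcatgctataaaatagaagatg
Mmp3: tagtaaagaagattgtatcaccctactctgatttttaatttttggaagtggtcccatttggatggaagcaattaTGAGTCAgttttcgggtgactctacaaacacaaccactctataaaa
The match starts 35 bases before the start in Mmp13 and 46 before it in Mmp3. It was present in the 300-base windows (250 before to 50 after the start) of 2 of the 13 list members with a window, against 4.71% of 8967 tested genes with one and 7.81% of all 32851 windows in the table.

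Cartilage genes were among the steepest rises, unevenly across libraries. Chad, chondroadherin, was at 10.2, 39.4 and 16.7 FPKM in HFD and 86.4, 98.8 and 307 in HFD_IO (2.80). Col10a1, the collagen of hypertrophic cartilage, was at 0.55, 7.49 and 1.18 against 32.0, 9.20 and 26.4 (2.78), so that HFD_2 came close to HFD_IO_2. Snorc, a cartilage proteoglycan gene, was at 1.82, 3.48 and 3.75 against 16.3, 14.6 and 35.9 (2.46). In the cartilage list 9 of 18 rose and 0 fell (median 1.07), with 5 without HFD_1. Col2a1, the main cartilage collagen, did not pass (1.72, adjusted p = 0.0752), at 2.98 to 16.9 FPKM in HFD and 13.7 to 73.4 in HFD_IO. Of 20 drivers and inhibitors of mineralisation 7 rose, 3 fell (1 without HFD_IO_2 or under TPM) and 10 did not pass (median 0.38). The osteoblast regulators Runx2, from 0.71, 0.36 and 0.31 to 1.79, 1.75 and 2.21 FPKM (1.01), and Sp7, from 0.22, 0.53 and 0.15 to 1.37, 1.57 and 4.89 (1.36), were low and rose. Spp1, osteopontin, made by both foam cells and mineralizing cells, went from 781, 1020 and 812 to 4558, 3531 and 2352 (1.96). Sost, sclerostin, a WNT inhibitor made in the aortic media and in bone, fell from 306, 306 and 317 to 89.0, 53.9 and 175 FPKM (-1.71). Alpl, tissue non-specific alkaline phosphatase, did not pass.

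In the BMP pathway, which signals through SMAD proteins to the ID genes, some targets fell and an antagonist rose. Grem1, gremlin 1, which binds BMP ligands, was at 1.24, 1.49 and 0.89 FPKM in HFD and 7.43, 19.99 and 21.4 in HFD_IO (2.85, SE 0.33, adjusted p = 0.0012). Among the targets, Id1 went from 95.1, 116 and 154 to 26.0, 25.8 and 33.8 FPKM (-2.04), with chow at 56.1 to 75.6, and Id3 from 181, 214 and 246 to 98.0, 88.7 and 109 (-1.10). The ligand Bmp3 went from 10.5, 9.57 and 14.4 to 3.98, 2.61 and 3.71 (-1.49), and the ligands Bmp2, Bmp4 and Bmp6 did not pass. Of the receptors Bmpr1b fell by 0.61 on the log2 scale and Bmpr2 rose by 0.37. Over the list of 22, 7 fell and 2 rose, with 4 falls without HFD_2, HFD_3 or HFD_IO_1 or under TPM. Id2, Smad6 and Smad7, also known targets, did not pass.

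TGF-beta family genes moved both ways, with 7 of 22 higher and 4 lower. Inhbb, the activin B subunit, went from 3.4, 3.47 and 3.28 FPKM to 9.42, 13.3 and 12.8 (1.54) and Tgfb1 from 29.5, 28.9 and 23.4 to 51.2, 53.4 and 60.9 (0.99). Thbs1, thrombospondin 1, rose by 1.12. Postn, periostin, a TGF-beta target, fell from 185, 171 and 173 to 86.3, 49.0 and 61.8 (-1.45), and Ltbp1, which holds latent TGF-beta in the matrix, by 0.88 on the log2 scale. The lower count was 2 without HFD_3 or HFD_IO_2. In the IGF list Igf1 rose from 7.92, 7.67 and 6.84 to 24.1, 24.7 and 15.9 (1.39), and the binding proteins split, Igfbp3 rising by 0.96, Igfbp6 falling by 1.72 and Igfbp7 falling by 1.10 on the log2 scale.

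Contractile smooth muscle genes were lower. Of 24 members 13 fell and 0 rose (median -0.86), and 10 of the 13 kept their call in the 8 basic checks. Cnn1, calponin, went from 610, 565 and 639 FPKM to 207, 160 and 273 (-1.53, SE 0.19, adjusted p = 0.0016), Myl9, a regulatory light chain of myosin, from 2660, 2618 and 3756 to 1071, 839 and 1301 (-1.49), and Des, desmin, from 43.2, 48.2 and 72.9 to 23.5, 14.6 and 18.2 (-1.49). Acta2, the most abundant member, went from 5674, 5422 and 6237 to 2521, 1863 and 3175 (-1.23, adjusted p = 0.00539); its call was lost under quantile normalization (-0.76, adjusted p = 0.102) and without the filter on low values (adjusted p = 0.377). Myh11, smooth muscle myosin heavy chain, was called (-0.87, adjusted p = 0.0418) but not without CD_2, CD_3, HFD_1, HFD_2, HFD_3, HFD_IO_1 or HFD_IO_2. Within HFD_IO the order was the same in Cnn1, Myl9, Acta2 and Myh11: HFD_IO_2 lowest and HFD_IO_3 highest. Myocd, Srf, Mylk, Flna and Cald1 did not pass. Among 17 receptor and channel genes of smooth muscle 5 were lower (10 with the length trend removed), led by the ATP-gated channel P2rx1 (11.6, 15.4 and 17.8 against 6.02, 2.53 and 4.49 FPKM, -1.61) and the potassium channel genes Kcnab1 (-0.96), Kcnmb1 (-0.89) and Kcnj8 (-0.79).

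Adventitial fibroblast and elastic fibre genes were lower in part. Of 21 fibroblast genes 9 fell and 1 rose (Has1, a hyaluronan synthase, 0.76; 2 rose without HFD_1). Igfbp6 went from 220, 150 and 244 FPKM to 51.4, 59.8 and 71.1 (-1.72), Clec3b, tetranectin, from 475, 317 and 509 to 134, 178 and 153 (-1.46), and Dpt, dermatopontin, from 264, 251 and 341 to 113, 136 and 83.2 (-1.37). Pdgfra and Lum did not pass. Mfap4, a microfibril protein, fell from 293, 319 and 413 to 165, 77.6 and 133 (-1.5). In the elastic fibre list 6 of 17 fell, 3 without HFD_3, HFD_IO_1 or HFD_IO_2 or under quantile normalization. Col8a1, a short-chain collagen of injured arteries, rose from 9.75, 14.4 and 7.75 to 28.6, 22.2 and 32.9 (1.33), while Col1a1, Col3a1 and Eln did not pass.

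Endothelial genes that bind leukocytes were higher in HFD_IO than in HFD. Sele, E-selectin, went from 3.32, 2.28 and 1.10 FPKM to 8.73, 6.68 and 7.02 (1.45). Selp, P-selectin, went from 10.5, 9.24 and 6.39 to 29.8, 19.3 and 25.5 (1.42) and Vcam1 from 40.2, 57.3 and 34.3 to 72.1, 84.4 and 87.5 (0.90). On chow Sele was at 3.15 to 5.04 FPKM and Vcam1 at 22.2 to 29.9, below HFD_IO. Chow Selp, at 13.4 to 27.9, overlapped HFD_IO. In the list of leukocyte integrins and adhesion molecules 12 of 18 rose and 2 fell. The 2 lower were Jam3, a junctional adhesion molecule (-1.20), and Itgb1, which lost its call without HFD_2, HFD_3, HFD_IO_1 or HFD_IO_2 and under both other scalings. Of 21 endothelial identity genes 8 rose and 0 fell (median 0.41), but the count was 4 without HFD_2 or HFD_IO_2, 3 without HFD_3 and 2 without HFD_IO_1 or HFD_IO_3. Flt1, a VEGF receptor gene, at 2.42, 2.69 and 2.24 against 5.70, 5.00 and 5.87 FPKM (0.92), and Plvap, which forms the diaphragms of fenestrae (1.04), were the 2 that held in the 8 basic checks. Pecam1 did not pass (0.41, adjusted p = 0.18). The endothelial identity list had a mean log2(FPKM + 1) of 4.74 to 5.02 on chow. That mean was 3.67 to 4.33 in HFD and 4.38 to 4.59 in HFD_IO, so HFD_IO stayed below chow.

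Heat shock genes were lower without exception among those called: 17 of 26 fell and 0 rose (median -0.83), and 12 of the 17 kept their call in the 8 basic checks, while 6 of the list were lower with a fat or muscle covariate (below). Hspa1b, an inducible HSP70 gene, was at 77.8, 127 and 89.0 FPKM in HFD, 132 to 233 on chow and 9.07, 12.3 and 30.1 in HFD_IO (-2.59, SE 0.40, adjusted p = 0.0031). Its neighbour Hspa1a ran in parallel at 42.3, 83.4 and 58.4 against 7.00, 7.40 and 19.8 (-2.43). These are near-identical copies, so the split of reads between them is uncertain. The small heat shock protein Hspb1 went from 499, 954 and 1040 to 214, 258 and 385 (-1.51), and the HSP40 partner Dnajb1 from 25.4, 54.9 and 35.1 to 11.2, 11.9 and 12.3 (-1.56). Hsf1, which encodes the transcription factor of the response, Hspd1, Hspa9 and Hsp90ab1 did not pass. Within HFD, HFD_1 was lowest in Hspa1b, Hspa1a, Hspb1 and Dnajb1.

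Promoters of members that fell together are shown for the element that heat shock factor binds, an inverted pair of nGAAn units. Elements searched in other lists are given with the processing of the data. The stretches are the bases before the RefSeq start nearest the gene's 5′ end (GRCm38.p6), 120 long or, for Dnaja1, 130, with matches to GAANNTTC or TTCNNGAA, each its own reverse complement and able to overlap, in capitals. They lie at chr17:34972157-34972276 (minus strand) for Hspa1a, chr17:34959239-34959358 (minus) for Hspa1b, chr5:135887799-135887918 (plus) for Hspb1, chr1:55088028-55088147 (plus) for Hspe1, a mitochondrial chaperonin gene, and chr4:40722338-40722467 (plus) for Dnaja1, another HSP40 gene.
Hspa1a: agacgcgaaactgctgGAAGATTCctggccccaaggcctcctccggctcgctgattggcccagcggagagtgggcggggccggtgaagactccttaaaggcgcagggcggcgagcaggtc
Hspa1b: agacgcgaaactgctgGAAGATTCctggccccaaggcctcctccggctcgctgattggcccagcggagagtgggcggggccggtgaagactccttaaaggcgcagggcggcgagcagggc
Hspb1: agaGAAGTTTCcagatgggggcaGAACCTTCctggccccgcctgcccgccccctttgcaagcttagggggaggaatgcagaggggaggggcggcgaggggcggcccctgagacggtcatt
Hspe1: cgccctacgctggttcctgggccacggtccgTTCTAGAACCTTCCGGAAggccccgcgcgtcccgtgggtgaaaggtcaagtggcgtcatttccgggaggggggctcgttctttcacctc
Dnaja1: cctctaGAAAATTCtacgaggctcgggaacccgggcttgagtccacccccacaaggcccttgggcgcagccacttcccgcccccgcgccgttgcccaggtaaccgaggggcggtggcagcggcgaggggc
The Hspa1a and Hspa1b stretches are identical at 119 of 120 bases. Over the 300-base windows, 9 of 18 heat shock genes with a window held the pair, against 11.7% of the 8967 tested genes and 15.1% of all 32851 windows. Of the 13 lower members with a window 7 held it. Hspe1 (-0.90) and Dnaja1 (-1.21) fell less than Hspa1a, and the number of matches was not set against the size of the change.

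Stress genes of other kinds did not follow as a block. Of 27 unfolded protein and integrated stress response genes 5 fell (18.5%) and 4 rose (14.8%), against 14.5% and 14.1% of all genes. Among those that fell, Ddit3, which encodes CHOP, went from 19.6, 26.3 and 30.1 to 13.3, 11.7 and 12.7 FPKM (-0.94). Herpud1 fell by 0.92 on the log2 scale. The 4 rises came to 1 without HFD_1 or HFD_IO_2 and 2 without HFD_2, HFD_3, HFD_IO_1 or HFD_IO_3, and the 1 that held was Ern1, the sensor IRE1 (0.82). Hspa5, the main chaperone of the endoplasmic reticulum, did not pass. Of 24 immediate early genes Egr2 rose by 1.19, Egr1 by 0.82 and Myc by 0.52, while Dusp1, a MAP kinase phosphatase, fell from 148, 191 and 150 to 71.1, 55.3 and 69.7 FPKM (-1.30). In all 6 of that list rose, 3 without HFD_IO_3, and 3 fell, 1 without HFD_2, HFD_IO_1 or HFD_IO_2, under quantile normalization or with the length trend removed. Fos, Jun and Atf3, known to be induced by tissue handling too, did not pass. Cdkn2a, the INK4a/ARF locus that marks senescent cells and macrophages, was at 1.80, 1.38 and 1.10 FPKM in HFD, 0.19 to 0.44 on chow and 4.61, 8.66 and 10.3 in HFD_IO (1.82).

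Clock genes moved in both directions. Nr1d1, the repressor REV-ERB alpha, was at 21.8, 17.6 and 22.3 FPKM in HFD and 47.1, 46.6 and 71.1 in HFD_IO (1.36, SE 0.22, adjusted p = 0.0034), with chow at 47.0 to 73.1. Arntl (0.68), which it is known to repress, Clock (0.61) and Bhlhe40 (0.87) rose. Cry1, a repressor, went from 8.85, 11.3 and 11.4 to 3.01, 2.59 and 2.97 (-1.57) with chow at 2.37 to 2.85, Per2 from 22.1, 22.4 and 23.2 to 11.1, 9.26 and 12.7 (-0.98), Hlf by 0.98 and Nfil3, which opposes it, by 1.15 on the log2 scale. Of 19 clock genes 6 rose and 4 fell. Dbp, Per1 and Per3 did not pass. The spread within groups was small in Nr1d1, Cry1 and Per2, and since the hour of harvest is not given, treatment and time of day cannot be told apart for these genes.

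Genes of energy metabolism were lower in HFD_IO than in HFD, with HFD_IO near the chow level in the first 2 lists. Respiratory chain genes had a mean log2(FPKM + 1) of 5.72 to 6.02 on chow. That mean was 6.44 to 7.07 in HFD and 5.81 to 6.06 in HFD_IO. For the tricarboxylic acid cycle it was 4.7 to 5.1 on chow, 5.26 to 5.97 in HFD and 4.79 to 5.06 in HFD_IO. Of 38 nuclear-encoded genes of the respiratory chain and ATP synthase 34 fell and 0 rose (median -0.78), with 20 without HFD_3 or HFD_IO_3 and 17 without HFD_IO_1. Ndufa4, a cytochrome oxidase subunit, went from 148, 160 and 249 FPKM to 71.9, 77.8 and 64.9 (-1.33, adjusted p = 0.0038) and Uqcr10, of complex III, from 231, 246 and 410 to 116, 150 and 120 (-1.16). Of 18 tricarboxylic acid cycle genes 11 fell, 6 without HFD_2 and 3 without HFD_3, HFD_IO_1 or HFD_IO_3. Of 24 fatty acid oxidation genes 9 fell, with 1 without HFD_3 or HFD_IO_1, 2 without HFD_IO_3, 4 without HFD_2 or HFD_IO_2 and 5 without CD_2. Of 13 genes of the mitochondrial genome 1 passed (mt-Co3, -2.0, adjusted p = 0.034), which did not pass without HFD_2, HFD_3 or any 1 HFD_IO library; 2 fell without CD_1 and 2 rose without HFD_3, and the median was -0.22. Of 40 ribosomal protein genes 18 fell, with 1 under quantile normalization, 8 without HFD_2, 9 without HFD_3 or HFD_IO_3 and 10 without HFD_IO_1. Of 26 proteasome genes 11 fell, 18 without CD_1, 6 without HFD_3 and 7 without HFD_2, HFD_IO_1 or HFD_IO_3, with 5 under TPM and 4 under quantile normalization. Psmb4, a subunit of the core particle, was at 102, 107 and 104 FPKM in HFD and 64.0, 68.0 and 69.7 in HFD_IO (-0.63). In glycolysis the macrophage hexokinase Hk3 rose by 1.43 and Ldhb fell by 1.16 on the log2 scale, with 7 of 20 lower, 4 without HFD_3 or under TPM and 3 under quantile normalization. TPM also left 8 ribosomal protein genes lower.

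Changes differed by gene length. When the protein-coding genes were cut into 5 classes by length, the median change ran from -0.28 in the shortest (27 to 2385 bases) through -0.10, -0.01 and 0.08 to 0.19 in the longest (7377 to 41155 bases). The shortest class had 164 higher and 766 lower genes and the longest 656 and 118. With that trend taken out, the respiratory chain list had 21 members lower, the ribosomal list 9, the proteasome list 6, the tricarboxylic acid cycle 10, the heat shock list 17 and the contractile list 19, and the macrophage list 16 higher. Quantile normalization left 21 lower members in the respiratory chain list, 7 in the tricarboxylic acid cycle and 5 in fatty acid oxidation. The part of gene length in these results was not otherwise tested.

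**Figure D3:**
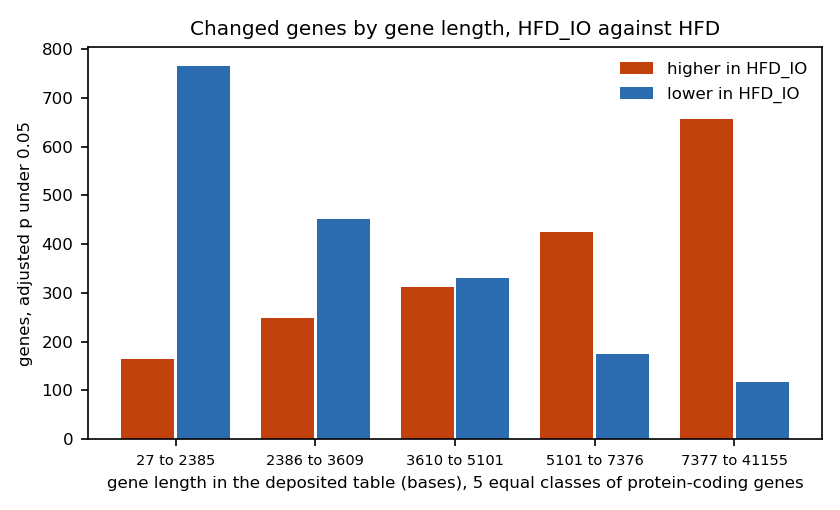
Number of protein-coding genes with an adjusted p under 0.05 that were higher (orange) or lower (blue) in HFD_IO than in HFD, in 5 classes of gene length of about equal size. Higher genes rise from 164 to 656 and lower genes drop from 766 to 118 from the shortest to the longest class.

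Red cell and brown fat genes were lower in HFD_IO, and white fat and striated muscle genes overlapped between the groups. Of 6 tested red cell genes 4 fell and all 4 held without any 1 library. Hbb-bs, an adult beta globin gene, was at 3580, 5757 and 11320 FPKM in HFD and 1036, 1206 and 1772 in HFD_IO (-2.24), Hbb-bt fell by 2.42 and Hba-a1 by 1.95 on the log2 scale, and Alas2, the erythroid enzyme of heme synthesis, went from 44.7, 55.0 and 106 to 18.3, 19.6 and 28.7 (-1.51). The globin genes are close copies, and their reads may be split. The red cell list summed to 8324 to 26100 FPKM in HFD, 2573 to 4150 in HFD_IO and 4677 to 12370 on chow; of its members under the filter Klf1 and Gata1 were near 0 in every library. Of 13 brown fat markers 6 fell and 0 rose (summed level 647 to 1631 against 232 to 330 FPKM). Ucp1, the uncoupling protein of brown fat, was at 189, 209 and 321 against 37.9, 31.6 and 55.2 FPKM (-2.5), Elovl3 fell by 2.41, Cox8b by 1.92 and Cox7a1 by 1.81 on the log2 scale. Of 19 white fat markers 5 fell and 1 rose (Cd36), 8 fell without HFD_IO_2, and the sums of 1649 to 4042 in HFD and 821 to 2551 in HFD_IO overlapped. Lep, leptin, was at 4.17, 2.59 and 2.15 against 0.53, 1.04 and 0.22 (-1.31), and Adipoq, adiponectin, did not pass (-1.29, adjusted p = 0.103). Of 10 striated muscle markers 1 fell (Myl1, -1.83), 0 without HFD_3, 6 without HFD_1 and 2 without HFD_IO_2, and the sums were 15.9, 103 and 67.5 against 8.16, 38.5 and 7.25 FPKM. No mesothelial marker of 5 passed.

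With the mean of the white fat markers as a covariate in the fit, 791 genes were higher and 685 lower, and with the striated muscle markers 846 and 738. The respiratory chain list then had 6 and 4 members lower, the tricarboxylic acid cycle 1 and 1, fatty acid oxidation 0 and 0, heat shock 6 and 6, the red cell list 0 and 0, the brown fat list 2 and 2 and the contractile list 11 and 13. Among the higher counts the macrophage list had 11 and 11, foam cell genes 6 and 8, LXR and efflux 8 and 8, the lysosomal list 5 and 7 and the cartilage list 2 and 3. Among the genes named above, those with a call kept without any 1 library but lost with the fat covariate were Chad, Col10a1, Sp7, Ccl2, Ccl7, Hk3, Plvap, Mmp8, Vcam1, Vcan, Egr1, Ern1, Slc25a37, Lpcat3, Urod, Fcgrt, Herpud1, Kcnab1, Nfil3, Uqcr10, Mgl2, Dnaja1, Hspb1, Lep, Alas2, Cox8b, Elovl3 and the 3 globin genes. With the muscle covariate the lost calls were those of Selp, Csf3r, Myc, Slc25a28, Bmpr2, Prdx4, Glrx5, Nox4, Ldhb and Ctse, and all of those just named except Chad, Ccl2, Ccl7 and Vcam1. Bmpr2 was also lost with the length trend removed, and Igfbp7, Myl9, Hba-a1 and Hbb-bs without a filter on low values. Slc40a1, Mmp13, Hmox1, Ftl1, Cd68, Cnn1, Id1, Grem1, Cry1 and Hspa1b kept their calls in all of these fits. The covariates overlap with the groups, and how much of each change belongs to attached tissue was not tested further.

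**Figure D4:**
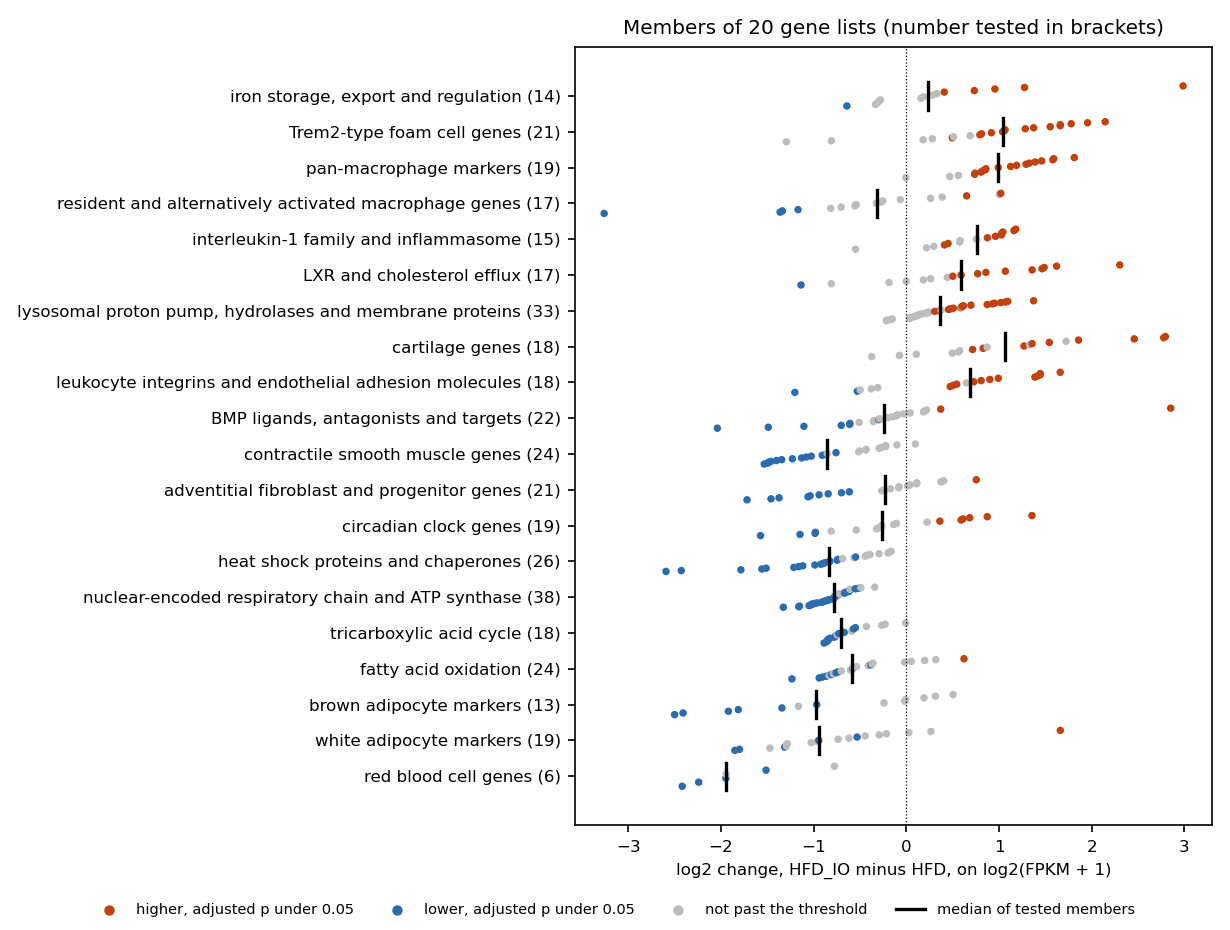
Log2 change (HFD_IO minus HFD, on log2(FPKM + 1)) of each tested member of 20 gene lists, with the median as a black bar; orange and blue points passed an adjusted p of 0.05. The foam cell, macrophage and cartilage medians lie near 1, and the brown fat, white fat, contractile, heat shock and respiratory chain medians between -0.97 and -0.78.

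**Figure D5:**
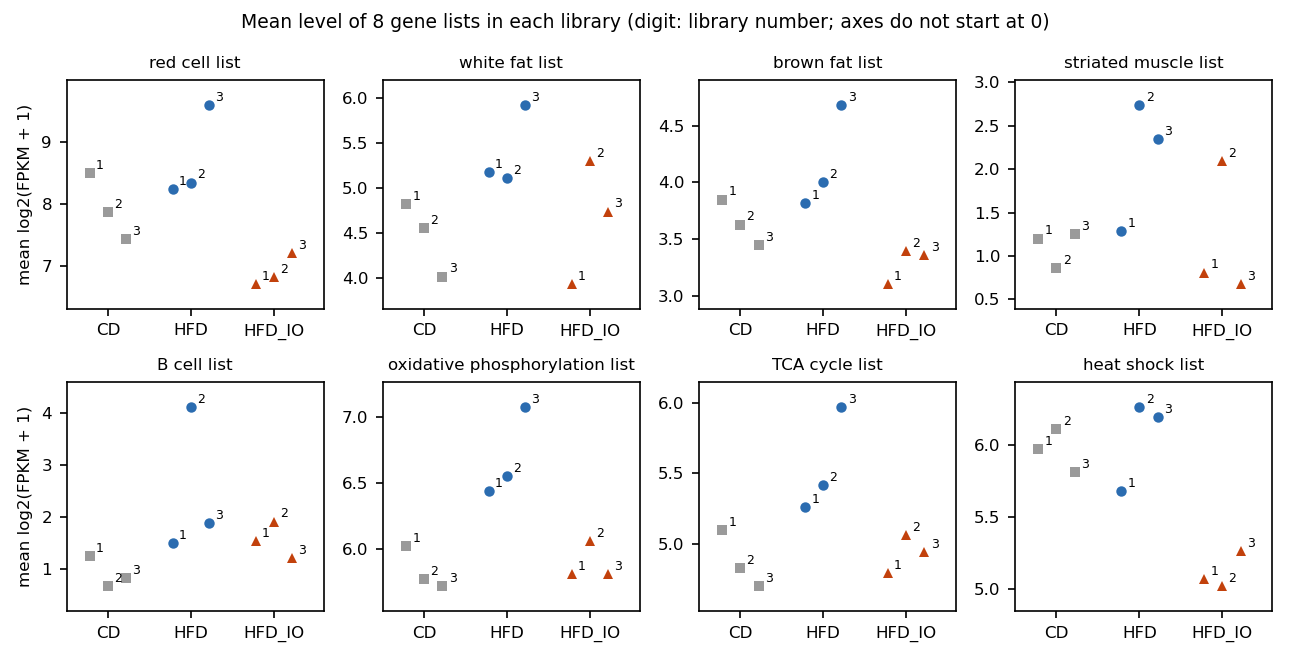
Mean log2(FPKM + 1) of the tested members of 8 gene lists in each library (digits: library number). HFD_3 is the highest library in the red cell, white fat, brown fat, oxidative phosphorylation and TCA cycle lists, HFD_2 in the B cell, striated muscle and heat shock lists.

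Among other classes of transcript, lincRNAs had 32 of 226 higher, a share near the 14.1% of all genes, and 16 lower. Of 105 miRNA genes 7 were higher and 0 lower (median 0.39). That higher share is below the 14.1% of all genes, and the count was 3 with voom. Processed pseudogenes had 21 of 631 higher and 112 lower, with a median of -0.32.

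Smaller groups gave single genes. Klf15, a transcription factor gene of quiescent smooth muscle and of metabolism, went from 26.2, 36.4 and 48.3 FPKM to 8.91, 15.6 and 18.0 (-1.34), and Adm, the vasodilator adrenomedullin, from 17.0, 14.3 and 19.5 to 6.21, 7.76 and 7.98 (-1.10). In the Notch pathway Rbpj, the DNA-binding mediator, rose by 0.94 and the ligand Jag1 by 0.66. Of 19 WNT ligand and antagonist genes 2 rose (10.5%) and 4 fell (21.1%), against 14.1% and 14.5% of all genes. The number that fell was 1 without HFD_IO_1 or under TPM and 2 without any 1 HFD library. The antagonists Frzb, from 43.4, 63.6 and 50.9 to 82.7, 103 and 131 (0.98), and Dkk2 (0.88) rose and the ligand Wnt5b fell by 0.69 on the log2 scale. Of 22 proliferation genes 2 rose, 9.09% against 14.1% of all genes. The count was 1 without CD_2 or any 1 of the 6 diet libraries and under quantile normalization. Mcm6, a replication helicase subunit (0.47), kept its call in each of these fits. The calls of Klf15 and Dkk2 were lost with either covariate.

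Where a list above had 0 members called in a direction, limma at an unadjusted p of 0.05 gave 0 as well for the macrophage, cartilage and endothelial lists (lower) and for the heat shock, contractile, brown fat, red cell and respiratory chain lists (higher). It gave 1 lower member in each of the foam cell, interleukin-1 and lysosomal lists, 3 lower mesothelial markers and no lower miRNA. In limma 1 foam cell gene was lower without CD_1, HFD_1 or HFD_IO_2, 1 endothelial gene without HFD_3 and 2 mesothelial markers without CD_2. Voom on recovered reads called 1 foam cell gene and 1 mesothelial marker lower and 0 in the other lists just named.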

How the data were processed

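RNA of 9 aortas (NEBNext Ultra libraries from total RNA, per the labels' protocols) was summarised by the authors as FPKM per gene, 1 deposited column per library. HISAT2 and hg38 are named in the submitters' processing notes, although the deposited IDs and coordinates are of mouse genes (98.3% identical to GENCODE M21, GRCm38). The counter, annotation release and strand setting are not stated in any source used here, so antisense and overlapping genes may share reads. The column numbers do not occur in the labels, so libraries are named by column and assigned to a group only. FPKM times gene length came in whole steps for 100.0% of values in every library, within 0.05 of a read, which gave the depths and the reads for an alternative fit. The scale implied by these steps was proportional to the size factors (median ratio to a common reference) in all 9 libraries. It was 0.895 (HFD_3) to 1.104 (CD_1) times the recovered reads, so FPKM here is not scaled to depth. Genes reaching 1 FPKM in 3 or more libraries were kept, a pseudocount of 1 was added, and limma 3.58.1 (R 4.3.3, trended variance, 3 group means over all 9 libraries) tested HFD_IO minus HFD, Benjamini-Hochberg adjusted over 13883 genes. The calculation was tested on simulated data. The members, the 71 gene lists and the alternatives were chosen with earlier results of these data known. Genes named come first from calls kept without any 1 of the 6 libraries and under TPM and quantile scaling. The HFD and HFD_IO values of these genes also did not overlap. The rule takes the 15 largest rises and falls among these and up to 6 such calls per list. It adds called members against a list's direction, the most abundant members and a fixed set. Hspe1, Arntl, Clock, mt-Co3, Slc7a11, Hamp, Alb, the pseudogenes under the other observations and members named only as not passing fall outside this rule and were chosen after their values were seen. A few genes that this rule names are not reported here. Promoters are RefSeq windows (GRCm38.p6), 1 per gene within 1000 bases of its 5′ end, found for 8967 tested genes. The CArG box (CCWWWWWWGG, W for A or T), antioxidant response core (TGACNNNGC) and E-box (CACGTG) were also searched. The CArG box was in 1 of 9 lower contractile genes (1.26% of tested genes). The antioxidant core was in 0 of 3 higher iron storage genes and 2 of 4 higher and 1 of 4 lower NRF2 list genes (14.9%). The E-box was in 3 of 10 higher lysosomal genes and 1 of 5 higher and 1 of 3 lower clock genes (10.3%).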

Additional observations from a re-analysis of the deposited data

How the results depend on the processing

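The counts of 1956 higher and 2013 lower genes changed by less than 1.5 times with a pseudocount of 0.1 or 5, no filter, quantile normalization, the 6 diet libraries alone, no variance trend, array weights, voom on recovered reads, removal of the length trend and protein-coding genes only. They moved further with a filter at 5 FPKM (1288 higher), on the TPM scale (1160 lower), with the white fat covariate (791 higher and 685 lower) and with the striated muscle covariate (846 higher and 738 lower). With 1 library left out they ranged from 1182 to 2437 higher and from 1093 to 2507 lower. Both highest counts were those without CD_1, a chow library whose spread enters the variance of the fit. The fits were compared over the 475 genes that the naming rule takes. None of these changed direction where it passed in the main fit or in the fit compared. Changes of direction in genes that passed in neither fit were not counted. No paired analysis was possible because the labels number the aortas 1 to 9 with no number shared between groups. With 3 aortas a group and 1 time point, no outlier test was made within groups. Genes under the filter, such as Slc7a11 and Hamp, rest on few reads, and no fold is given for them.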

Other observations

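A few genes set the HFD libraries apart from both other groups by at least 10 times, in a search made after the values were seen. Ifi202b (chromosome 1, 173962568 to 173982744), of the interferon-inducible p200 family and known to be expressed in some inbred mouse strains and nearly silent in others, was at 6.97, 9.06 and 9.36 FPKM in HFD_1 to HFD_3, at 0.03, 0 and 0 in HFD_IO_1 to HFD_IO_3 and at 0.03, 0 and 0.03 on chow. Pcna-ps2 (chromosome 19) was at 6.23, 10.8 and 9.16 against 0.34, 0.55 and 0.59 in HFD_IO and 0.39 to 0.61 on chow. Gm3375, a processed pseudogene on chromosome 7, was at 37.3, 35.2 and 36.7 against 2.58, 1.44 and 2.35 in HFD_IO and 0.61 to 1.24 on chow. Gm42533, a processed pseudogene on chromosome 5, was listed at 0 in all 3 HFD libraries, at 3.44, 2.56 and 2.16 in HFD_IO and at 0.70 to 1.73 on chow. By the same rule 3 genes were higher and 3 lower in HFD than in both other groups. The counts were 0 higher and 2 lower in HFD_IO, and 0 higher and 13 lower on chow. A higher gene had to reach 2 FPKM in all 3 libraries of its group. A lower gene had to reach 2 FPKM in only 1 library of the other groups and exceed 0 in each of them. Counts in the 2 directions are therefore not comparable. Other p200 genes on the same stretch of chromosome 1 did not share the pattern, and 5 of the 9 tested rose (1 without HFD_3 or HFD_IO_2, 2 without HFD_1 or HFD_IO_3, 3 without CD_3 or HFD_IO_1): Ifi207 rose in HFD_IO by 1.33, while Ifi204, Ifi205 and Ifi209 did not pass. All 9 animals carry 1 genotype label, and differences in genetic background between the groups were not tested.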
